A study of Mus musculus with 4 samples.

Results

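The cells described here are 964 cells selected as prostate fibroblasts by decorin and collagen transcripts from the ventral prostate of wild-type C57BL6j mice. A cell was taken when it had at least 500 UMIs (unique molecular identifiers, each standing for 1 captured RNA molecule), at most 20% of counts from mitochondrially encoded genes, and at least 3 UMIs and 0.3% of its UMIs from Col1a2, Col3a1 and Dcn together. Cells with 10% or more of their UMIs from the luminal secretory genes Sbp and Spink1, or with more than 1 UMI of C1qa, C1qb and C1qc, were left out. The rule took 964 of the 11245 deposited cells, and of the 8091 that met its UMI and mitochondrial limits (the kept cells). Mice received pellets under the labels sham or te2, a code that the sources used here do not spell out, in a series on steroid hormone imbalance, and were sampled 2 weeks later. There were 2 libraries per group, each made from both ventral lobes of 1 animal after digestion at low temperature by a Bacillus protease, with no sort. Sham replicates 1 and 2 gave 248 and 122 selected cells, and te2 replicates 1 and 2 gave 228 and 366. The p-values below measure the spread between these 4 animals. Those that compare the response between cell sets use an estimate of spread shared by both sets.

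Fibroblasts build the collagenous and proteoglycan scaffold of the prostatic stroma and sit around the ducts and in the adventitia of vessels. In the prostate they pass growth factors such as IGF1 and FGF10 to the epithelium. Connective tissues in general hold a Pi16 and Dpp4 bearing adventitial fibroblast, and organ-specific fibroblasts closer to the parenchyma.

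The fibroblast label held for 499 of the 964 selected cells (51.8%) and went against the data for most of the others. The 499 had at most 2 UMIs of the basal keratins Krt5, Krt14, Krt15 and Krt17 and at least 1 UMI of Col1a2 or Col3a1. They are called fibroblast-like below. The basal keratins mark the epithelial cells that line the outside of prostatic ducts. Another 410 cells (42.5%) had at least 3 UMIs of these keratins, and 353 of the 410 had no UMI of Col1a2 or Col3a1. They had entered through Dcn, and are called keratin-bearing. The remaining 55 cells (5.71%) met neither description. This split was chosen after the data were seen and rests on keratin and collagen UMIs. The levels of those genes in the classes are therefore description. Some of them, among them Col1a2 and the basal keratins, also fall in gene lists tested below.

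**Figure D1:**
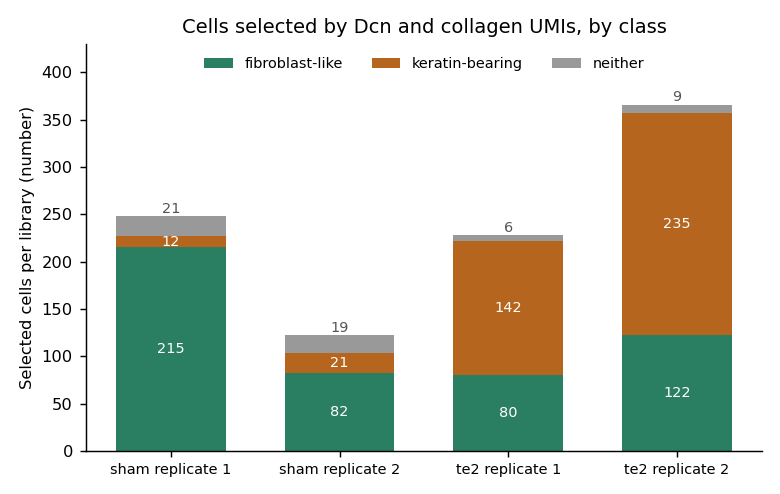
Number of selected cells per library (vertical axis) in each of the 4 libraries (horizontal axis), stacked by class. The fibroblast-like class held 215 and 82 cells in sham and 80 and 122 in te2, and the keratin-bearing class 12 and 21 in sham and 142 and 235 in te2.

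The keratin-bearing cells lay almost wholly in te2. Sham 1, sham 2, te2 1 and te2 2 had 12, 21, 142 and 235 of them, which was 4.84%, 17.2%, 62.3% and 64.2% of the selected cells. The groups did not overlap. The te2 libraries were also deeper: the median keratin-bearing cell had 1049.5, 1033, 2104.5 and 2605 UMIs in the 4 libraries, and the part of depth in reaching 3 keratin UMIs was not tested. Kept cells within the Sbp, Spink1 and C1q limits that had 3 or more keratin UMIs were also more numerous in te2, selected or not. They numbered 33, 150, 815 and 723 in sham 1, sham 2, te2 1 and te2 2. Of them 81.8%, 70.7%, 57.2% and 72.9% had a Dcn UMI, so the selected ones were those with the most Dcn.

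Gsn and Serping1, which neither the rule nor the split used, differed between the classes. Gsn (gelsolin, an actin-severing protein) had a median of 19, 16, 65 and 84 UMIs per fibroblast-like cell in sham 1, sham 2, te2 1 and te2 2, against 0, 0, 1 and 1 per keratin-bearing cell. Serping1, the C1 inhibitor of complement, had a median of 4, 4, 7 and 6 UMIs against 0 in each library. All keratin-bearing cells together held 0, 0, 1 and 16 Serping1 UMIs. Even Dcn, which chose both classes, was unequal, at a median of 11, 8, 30.5 and 31 UMIs in fibroblast-like cells and 4, 4, 9 and 12 in keratin-bearing cells. The 7 fibroblast markers, which include the 3 genes of the rule, summed to 46790 to 66103 CPM (counts scaled to the same total) in fibroblast-like cells, 4498 to 6061 in keratin-bearing cells and 206 to 454 in the kept cells that were not selected. The 9 basal markers, which include the 4 keratins of the split, summed to 153 to 211 CPM in fibroblast-like cells and 5459 to 16478 in keratin-bearing cells.

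**Figure D2:**
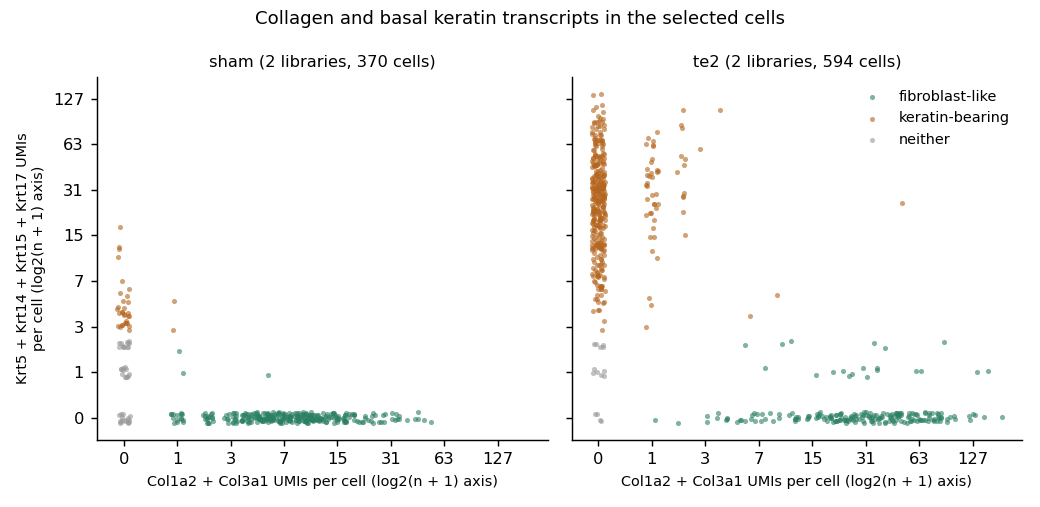
Col1a2 and Col3a1 UMIs (horizontal, log2 of n + 1) against basal keratin UMIs (vertical, same scale) in each selected cell, with sham left and te2 right and small random offsets. Keratin-bearing cells, 33 in sham and 377 in te2, stand along the axis of no collagen, apart from the fibroblast-like cells along the axis of no keratin.

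Most cells just outside the rule missed it by the 0.3% share. Of the selected cells, 30 had exactly 3 UMIs of the rule genes and 26 had 4, while 23 cells missed the rule with 2. The 0.3% share alone kept out 479 cells, 10 and 35 in sham and 211 and 223 in te2, and the minimum of 500 UMIs alone kept out 151. The Sbp and Spink1 limit alone kept out 30, the mitochondrial limit 9 and the C1q limit 5. On the keratin cut, 58 selected cells had 1 or 2 keratin UMIs and 29 had 3 or 4.

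The libraries held 2250 to 3061 cells, and 3999690, 5513275, 12259610 and 13134017 UMIs in sham 1, sham 2, te2 1 and te2 2. Any pair of libraries shared 1 to 5 cell barcodes. Fibroblast-like cells summed to 241332, 86408, 199511 and 325825 UMIs in sham 1, sham 2, te2 1 and te2 2, with medians of 1007, 956, 2471 and 2528.5 per cell. The 12 luminal markers, which include Sbp and Spink1 of the rule, summed to 31210 and 36305 CPM in sham and 2140 and 5518 in te2 in these cells. In the unselected kept cells they summed to 241344 to 278542 in sham and 87381 to 136656 in te2. Of the 6 luminal markers tested in fibroblast-like cells (test described below), only Sbp and Spink1 were lower and none was higher. The median log2 change of the 6 was 0.02. The 12 macrophage markers summed to 9.21 to 66.3 CPM, the 9 endothelial markers to 80.2 to 243 and the 11 measured smooth muscle markers to 361 to 498 in fibroblast-like cells. Doublets were called for 13 of the 964 selected cells and were left in.

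The selected cells were 15.1% and 6.05% of kept cells in sham and 9.81% and 17.3% in te2, and the fibroblast-like cells 13.1% and 4.07% in sham and 3.44% and 5.78% in te2. The groups overlapped in both. The te2 minus sham difference was 2.98 and -3.99 percentage points, each with p = 0.667 in a two-sided exact permutation test, which cannot go below 0.33 with 2 animals against 2. With 1 library left out the first difference ran from -1.57 (without sham replicate 2) and -0.784 (without te2 replicate 2) to 6.74 (without te2 replicate 1) and 7.52 (without sham replicate 1), and it was -0.0063 when cells were thinned to 500 UMIs before the rule was applied. Leaving out sham 1, sham 2, te2 1 and te2 2 in turn made the second 0.544, -8.52, -2.82 and -5.15.

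Over all selected cells, basal keratin genes were higher and many fibroblast genes lower in te2, where the keratin-bearing class was larger. Counts were summed per library and tested with edgeR's quasi-likelihood test at a Benjamini-Hochberg adjusted p of 0.05. Of 6719 genes tested, 403 were higher in te2 (6.0%) and 484 lower (7.2%), with a median log2 change of -0.01. With library totals in place of the TMM factors 587 were higher and 398 lower, and the median was 0.12. Without te2 replicate 1 no gene passed (979 had an unadjusted p under 0.05, and no other tool was run on these 3 libraries), and without sham replicates 1 and 2 or te2 replicate 2 the count was 369, 1456 and 336. Krt15 and Krt14 were at 192, 754, 6020 and 8052 CPM and at 8.35, 42.4, 488 and 499 CPM in sham 1, sham 2, te2 1 and te2 2. Lgals7, a galectin of stratified epithelia, was at 20.9, 33.9, 879 and 786 CPM, a log2 change of 5.02 ± 0.33 (SE, adjusted p = 5.58e-06). Of 8 basal markers tested, 7 were higher in te2, and the 4 keratins among them had served to split the cells. Of 20 adventitial fibroblast genes, 13 were lower with a median of -1.09, and of 10 complement genes 6 were lower and 1 higher with a median of -0.87. In a mixture, fewer cells of a type and less RNA per cell cannot be told apart, so the fibroblast genes are described next in the fibroblast-like cells.

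In the fibroblast-like cells 72 of 4290 genes passed the same test, 30 higher (0.699%) and 42 lower (0.979%), with a median log2 change of 0.01. Sbp and Spink1, which the rule used, are among the 42. In all 72 the 2 groups of libraries did not overlap, so a lack of overlap sets no passing gene below apart from the others. The share of all 4290 genes without overlap is not given here. For genes that did not pass, a lack of overlap is therefore description only. Without te2 replicate 2 the count was 6, of which C7, Ctla2a, Sbp and Spink1 were among the 72, and it was 190 without sham replicate 2 and 208 without te2 replicate 1. With library totals in place of TMM factors 44 were higher and 37 lower. Each list count below is read against the 0.699% and 0.979% given here.

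Complement components C7, C4b and C3 were higher in te2. C7 is a terminal component that inserts the attack complex into membranes. Its level was 162 and 137 CPM in sham and 2235 and 1343 in te2, so the te2 libraries lay far above both sham libraries. The log2 change was 3.53 ± 0.32 (SE, adjusted p = 0.000769), and the gene passed in all 19 alternative fits. C4b, a C4 component of the classical and lectin pathways, was at 73.8 and 219 CPM in sham and 468 and 491 in te2, with a log2 change of 1.98 ± 0.38 (adjusted p = 0.0307, passing in 15 of 19 alternatives). C3, the component on which all complement pathways meet, was at 1171 and 1464 CPM in sham and 2506 and 2610 in te2, a change of 0.97 ± 0.21 (adjusted p = 0.0417, passing in 12 of 19). Neither gene's groups overlapped. The genes that start or restrain the cascade did not pass: C1s1, a protease of the C1 complex, was at 1161 and 1286 CPM in sham and 835 and 866 in te2 (adjusted p = 0.224). Serping1 was at 4923 and 5500 CPM in sham and 3296 and 3128 in te2, and Cd55, which speeds the decay of complement convertases, at 541 and 657 in sham and 333 and 164 in te2. Both had lower values in each te2 library, with adjusted p of 0.0993 and 0.0689. Of 11 complement genes tested 3 were higher and none lower, with a median of 0.19.

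C7 was spread over many cells. After each cell was thinned to 500 UMIs, a C7 UMI was found in 5.58% (95% exact interval 2.92 to 9.55) and 4.88% (1.34 to 12) of fibroblast-like cells in sham and in 48.8% (37.4 to 60.2) and 36.1% (27.6 to 45.3) in te2. The intervals cover counting error only. In the unselected kept cells at the same depth the share was 0.144%, 0% (of 1895 cells, which allows up to 0.158%), 0% (of 2096, up to 0.143%) and 0.0573%. The 2 groups of libraries did not overlap (exact permutation p = 0.33, the smallest possible). Unthinned, the shares were 12.1% and 11.0% in sham and 78.8% and 74.6% in te2.

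Of the 6 acute phase genes tested 2 were higher, with a median of 0.92. Haptoglobin (Hp), which binds free haemoglobin, is in neither sham table; the te2 fibroblast-like cells held 23 and 110 UMIs (adjusted p = 0.0147). These lay in 13 and 25 cells, with at most 37 in any cell. Lbp, the lipopolysaccharide-binding protein, was at 167 and 178 CPM in sham and 384 and 609 in te2, a log2 change of 1.55 ± 0.30 (adjusted p = 0.0307). Saa3, a serum amyloid A, was at 1308, 1464, 1840 and 1517 CPM in sham 1, sham 2, te2 1 and te2 2 and did not pass (adjusted p = 0.532).

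**Figure D3:**
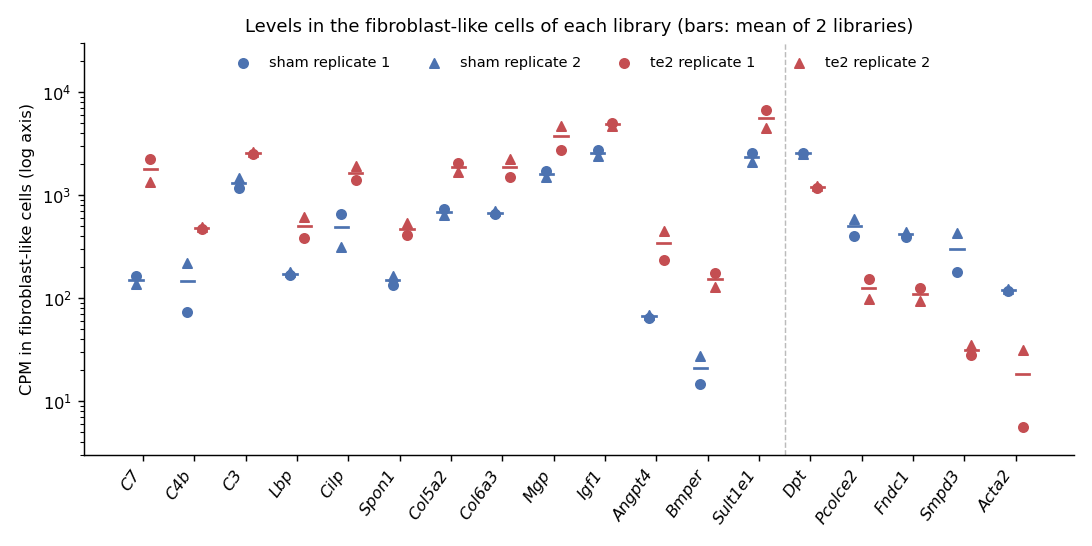
CPM on a log axis of 18 genes in the fibroblast-like cells of each library, with sham blue, te2 red and bars at the mean of 2 libraries. For every gene drawn, as for all 72 genes that passed, both te2 points lie on the same side of both sham points. They lie above them for the 13 genes left of the dashed line (C7 at 2235 and 1343 against 162 and 137) and below them for the 5 to its right.

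Among matrix genes, 2 collagens and 4 adhesive or microfibril-associated genes were higher, and 1 of the latter list was lower. Of 18 collagen genes tested, Col5a2 and Col6a3 passed and none was lower, with a median of 0.37 and 14 positive values. The list includes Col1a2, which the rule and the split used, so its median and positive count partly rest on the selection. Col5a2, a chain of the collagen V that nucleates collagen I fibrils, was at 723 and 643 CPM in sham and 2038 and 1681 in te2, a log2 change of 1.43 ± 0.22 (adjusted p = 0.0116). Col6a3, a chain of the beaded-filament collagen VI, was at 649 and 698 CPM in sham and 1490 and 2255 in te2, a change of 1.49 ± 0.25 (adjusted p = 0.015). Both te2 libraries lay above both sham libraries for each. Col1a1, a chain of collagen I, was at 2149, 2709, 3065 and 3723 CPM in sham 1, sham 2, te2 1 and te2 2 and did not pass (adjusted p = 0.262). Without te2 replicate 2 no collagen passed and the median was 0.04.

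Of 40 elastic and adhesive matrix genes tested, Spon1, Cilp, Ccdc80 and Mgp were higher and Dpt lower, with a median of 0.39. Spon1, which encodes the secreted adhesion protein spondin 1, was at 133 and 164 CPM in sham and 406 and 536 in te2 (log2 change 1.73 ± 0.28, adjusted p = 0.015). Cilp, the cartilage intermediate layer protein, was at 659 and 315 CPM in sham and 1389 and 1903 in te2 (1.67 ± 0.30, adjusted p = 0.0255). Mgp, the matrix Gla protein that inhibits calcification, was at 1716 and 1491 CPM in sham and 2726 and 4701 in te2 (1.21 ± 0.26, adjusted p = 0.043). The te2 libraries were the higher ones in each case, and they differed from each other most in Mgp. No leucine-rich proteoglycan (8 tested, median -0.10) and no matrix protease or inhibitor (19 tested, median 0.17) passed.

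Growth factor and BMP-pathway genes that rose were few. Of 21 growth factors tested Igf1 and Angpt4 were higher, with a median of 0.47. Igf1 was at 2705 and 2408 CPM in sham and 5041 and 4711 in te2, a log2 change of 0.93 ± 0.20 (adjusted p = 0.0417, passing in 12 of 19 alternatives). Angpt4, a ligand of the endothelial receptor TIE2, was at 63.9 and 68.4 CPM in sham and 231 and 445 in te2 (2.40 ± 0.41, adjusted p = 0.0161). For both, the te2 values lay above the sham values. Bmper, a secreted BMP-binding protein, was the only one of 14 BMP and Wnt pathway genes to pass (2.98 ± 0.50, adjusted p = 0.0161), on 3, 2, 31 and 37 UMIs in sham 1, sham 2, te2 1 and te2 2; the list's median was -0.19. Wnt5a, a non-canonical Wnt ligand, was at 182 and 205 CPM in sham and 84.7 and 45.2 in te2, just short of the threshold (adjusted p = 0.0506). The mesenchymal ligands for the epithelial FGF receptor did not pass: Fgf10 was at 128, 54.7, 135 and 205 CPM in sham 1, sham 2, te2 1 and te2 2, which overlapped, and Fgf7 at 44.3, 41.0, 90.3 and 115 (adjusted p = 0.349 and 0.157).

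Of 13 steroid hormone genes tested 1 passed, with a median of 0.74. Sult1e1, the estrogen sulfotransferase that inactivates estrogens by sulfation, was at 2558 and 2093 CPM in sham and 6610 and 4457 in te2, a log2 change of 1.24 ± 0.24 (adjusted p = 0.0307, passing in 15 of 19 alternatives). After thinning, 52.1% and 41.5% of fibroblast-like cells in sham and 73.8% and 68.9% in te2 had a Sult1e1 UMI, against 0.143% to 1.37% of the unselected kept cells. Hsd11b1, which regenerates active glucocorticoid, was at 177 and 109 CPM in sham and 22.6 and 59.2 in te2 (adjusted p = 0.0706). The estrogen receptor Esr1 had 2, 1, 1 and 2 UMIs and the progesterone receptor Pgr 0, 1, 0 and 0, too few to test. The glucocorticoid receptor Nr3c1 was at 152, 246, 152 and 143 CPM, with the groups overlapping (adjusted p = 0.651).

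Of 20 lipid handling and adipogenic genes tested 1 passed, with a median of 0.18. It was Cebpd, a transcription factor of the acute phase and of adipocyte differentiation, at 295 and 287 CPM in sham and 807 and 1155 in te2 (log2 change 1.75 ± 0.26, adjusted p = 0.0106). Hpgd, which degrades prostaglandins, was at 103 and 82.1 CPM in sham and 299 and 480 in te2 (2.03 ± 0.34, adjusted p = 0.015). Hspa5, the chaperone BiP of the endoplasmic reticulum, was at 812 and 711 CPM in sham and 1733 and 1962 in te2 (1.27 ± 0.21, adjusted p = 0.015). In all 3 the te2 values lay above the sham values. Ctla2a, a cysteine protease inhibitor, was represented by 2, 1, 213 and 49 UMIs in sham 1, sham 2, te2 1 and te2 2. The summed ratio of rates was 54.5, with a 95% interval of 18.4 to 266 that covers counting error only. In the edgeR fit the log2 change was 5.84 ± 1.15 (adjusted p = 0.0319). Those te2 UMIs lay in 16 and 12 cells, with up to 68 in 1 cell, so few cells carried the rise.

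Dermatopontin (Dpt), a collagen-binding matrix protein of adventitial fibroblasts, was lower in te2. It was at 2558 and 2490 CPM in sham and 1174 and 1225 in te2, a log2 change of -1.07 ± 0.19 (adjusted p = 0.0255). Pcolce2, which enhances procollagen C-terminal processing, was at 403 and 588 CPM in sham and 152 and 97.4 in te2 (-1.97 ± 0.31, adjusted p = 0.0136). The groups did not overlap in either gene. These were the 2 that passed of 20 adventitial genes tested, and the median of the 20 was 0.01, the same as that of all genes. Pi16, a secreted peptidase inhibitor, was at 871 and 1245 CPM in sham and 672 and 480 in te2 (adjusted p = 0.113). Dpp4, a dipeptidyl peptidase on the cell surface, was at 251 and 192 CPM in sham and 164 and 87.0 in te2 (adjusted p = 0.18). Both te2 values were the lower ones in each, without passing.

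Fndc1, Smpd3 and Bhlhe41 were also lower in te2. Fndc1, a fibronectin type III domain protein, was at 393 and 438 CPM in sham and 124 and 93.9 in te2 (-1.94 ± 0.27, adjusted p = 0.00866, passing in 18 of 19 alternatives). Smpd3, a neutral sphingomyelinase, was at 177 and 424 CPM in sham and 28.2 and 34.8 in te2 (-3.0 ± 0.48, adjusted p = 0.0147). The circadian repressor Bhlhe41 was at 157 and 109 CPM in sham and 5.64 and 20.9 in te2 (-3.19 ± 0.52, adjusted p = 0.015). No te2 value of these 3 reached a sham value. Of 8 myofibroblast and activation genes tested only Acta2 (smooth muscle actin) passed, on 24, 9, 1 and 9 UMIs in sham 1, sham 2, te2 1 and te2 2 (-2.46 ± 0.53, adjusted p = 0.0435), in 9 of the 14 alternatives that tested it. The 11 measured smooth muscle markers, of which Acta2 is 1, summed to 497 and 498 CPM in sham and 361 and 439 in te2.

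Of 76 ribosomal protein genes tested 12 were lower in te2 and none higher, with a median of -0.55. Without te2 replicate 2 none passed (median -0.51), and at 1000 UMIs per cell 2 did. Rpl23a was at 915 and 848 CPM in sham and 265 and 195 in te2. Of 13 mitochondrially encoded genes mt-Nd6 and mt-Co1 were lower and mt-Nd3 higher, with a median of -0.74, while none of the 34 nuclear respiratory chain genes passed (median 0.14). All 14 genes that fell in these 2 lists were also lower in the kept cells outside the class, and for none did the change differ between the cell sets (adjusted p over 0.05). The UMIs per cell differed between the same groups, and their part was not tested. No gene passed among 11 interferon-response, 11 MHC class I, 11 cell cycle and 11 chemokine and cytokine genes. For the chemokine Ccl11, which draws eosinophils, the values were 393, 164, 107 and 125 CPM (adjusted p = 0.0785).

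Transcripts typical of other cells were among those that fell. Sbp, a secretory protein of luminal cells that the rule used, was at 16678 and 23601 CPM in sham and 1078 and 3076 in te2. In the kept cells outside the class it was at 174260 and 154845 in sham and 48552 and 95633 in te2. Haemoglobin Hbb-bs had 100 and 194 UMIs in sham fibroblast-like cells and 6 and 5 in te2, and 189 of the 194 lay in 1 cell of sham replicate 2. The adipocyte markers likewise turned on 1 cell of te2 replicate 2, with 91 of that library's 92 Fabp4 UMIs. Without the cell richest in Hbb-bs and the cell richest in Cfd (adipsin), 79 genes passed; the log2 change of C7 was 3.54, and Hbb-bs was still lower at -3.77 (adjusted p = 0.0249). Wfdc3, higher at 19.7 and 27.4 CPM in sham against 119 and 386 in te2, was at 196 and 360 in sham and 3362 and 3257 in te2 in the kept cells outside the class. What free RNA contributed to these genes was not tested.

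The same 4 libraries gave the fibroblast-like cells and the other kept cells, so the changes in both are set side by side. In the other kept cells 14.7% of 13776 genes tested were higher in te2 and 12% lower. Of the 42 genes lower in fibroblast-like cells, 41 were tested in the 7592 other kept cells, the keratin-bearing cells among them, and 35 were lower there too. Of the 30 higher genes 26 were tested there, 12 were higher too and Col6a3 was lower. A term for the difference in response between the 2 cell sets, in a fit with the library as a block, passed for 151 of 12279 genes (1.23%), 105 with the larger value in fibroblast-like cells. The median difference was 0.10, and with library totals in place of TMM factors it was -0.29, with 65 called larger and 173 smaller. For all selected cells against the unselected the term passed for 375 of 12638 genes (2.97%). In fibroblast-like cells it passed for 15 of the 30 higher genes and for 6 of the 42 lower ones.

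For Col6a3 the log2 change was 1.49 in fibroblast-like cells and -2.02 in the others. The difference in the joint fit of both sets was 3.67 ± 0.32 (adjusted p = 1.47e-26). The difference was 2.70 for Col5a2 (adjusted p = 0.000584), 2.46 ± 0.55 for Spon1 (0.00174), 2.39 ± 0.44 for C4b (2.31e-05), 2.26 for Sult1e1 (1.13e-05) and 1.65 for Igf1 (0.0012). C7 was at 0.20 to 1.61 CPM in the other kept cells, and its difference of 2.94 ± 0.99 did not pass (adjusted p = 0.165). For Ccdc80 and Lbp the rise was smaller than in the other cells, by -1.45 each (adjusted p = 0.0102 and 0.0324), where their log2 changes were 2.78 and 3.18. Dpt fell less in fibroblast-like cells than elsewhere (1.54, adjusted p = 0.0205). The others hold cells that missed the rule only by Sbp and Spink1, 17 and 12 in sham and 0 and 1 in te2. They also hold the selected cells of neither class, 21 and 19 in sham and 6 and 9 in te2. Cells missed only by the 0.3% share went the other way, at 10 and 35 in sham and 211 and 223 in te2. What these cells or free RNA contributed to the differences was not tested.

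**Figure D4:**
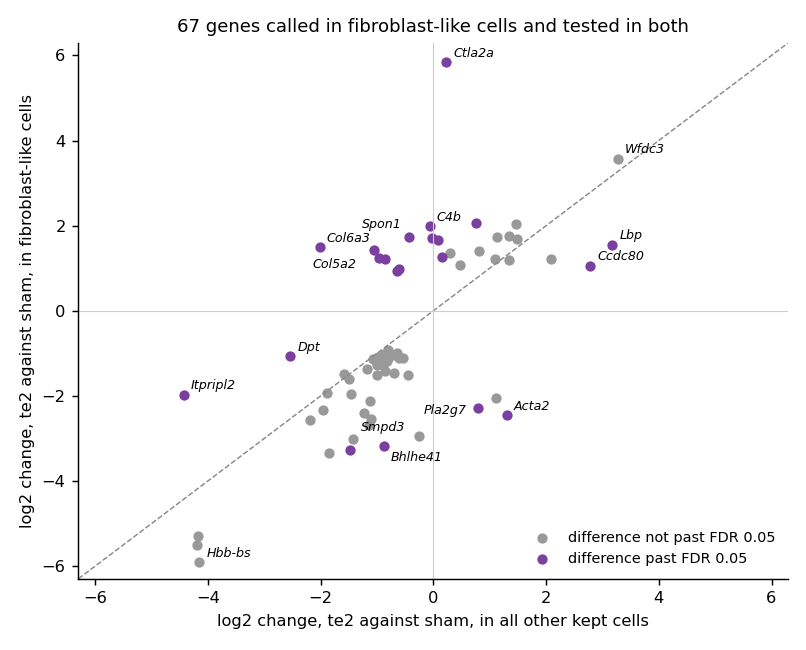
Log2 change, te2 against sham, in the other kept cells (horizontal) and in fibroblast-like cells (vertical) for the 67 genes that passed in fibroblast-like cells and were tested in both; the dashed line marks equal change. Purple points, for which the difference itself passed an adjusted p of 0.05, include Col6a3 (-2.02 and 1.49) and Ctla2a above the line and Acta2 below it.

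Fibroblast subtypes were looked for first by known genes. After thinning to 500 UMIs, a UMI of any of the 22 adventitial genes was present in 96.3% and 95.1% of fibroblast-like cells in sham and 97.5% and 98.4% in te2, of any prostate ductal fibroblast gene in 75.3%, 70.7%, 82.5% and 86.1%, and of any myofibroblast or activation gene in 44.7%, 40.2%, 41.3% and 36.9%. In the unselected kept cells the adventitial share was 8.23% to 28.4%, the ductal share 33.8% to 40.9% and the myofibroblast share 12.3% to 18.0%. The adventitial list as a whole therefore marked nearly every fibroblast-like cell and did not divide them. Over all selected cells its share was 87.5%, 67.2%, 49.6% and 48.6% in sham 1, sham 2, te2 1 and te2 2, with the keratin-bearing cells included.

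Pi16 was more selective. A Pi16 UMI was found in 25.1% (95% exact interval 19.5 to 31.5) and 31.7% (21.9 to 42.9) of thinned fibroblast-like cells in sham and in 13.8% (7.07 to 23.3) and 13.1% (7.69 to 20.4) in te2, against 0.633% to 1.05% of the unselected kept cells. The groups did not overlap (exact permutation p = 0.33, the smallest possible). Without thinning the shares were 34.0%, 41.5%, 36.2% and 35.2%, which overlapped. Pcolce2 behaved alike after thinning, at 15.3% and 12.2% in sham and 3.75% and 4.1% in te2, and Dpp4 overlapped at 8.84%, 6.10%, 6.25% and 3.28%.

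Dividing the fibroblast-like cells by any UMI of Pi16 or Dpp4 gave 81, 36, 31 and 49 cells with and 134, 46, 49 and 73 without in sham 1, sham 2, te2 1 and te2 2. The cells with a UMI were deeper, at medians of 1146, 993.5, 3033 and 2618 UMIs against 956.5, 953, 2188 and 2328. Fbn1, the microfibril protein fibrillin 1, was at 2574, 2848, 2287 and 2336 CPM in the cells with a UMI and 638, 829, 824 and 655 in those without. Fibronectin (Fn1) was at 1090, 1412, 2157 and 1490 CPM against 301, 291, 571 and 177, and Cd55 at 894, 981, 410 and 277 against 136, 157, 197 and 52.0. In each of the 4 libraries all 3 were higher in the cells with a UMI, as were Cd34, Cd248, Sema3c, Mfap5, Tnxb, Clec3b, Efemp1 and Postn. Other adventitial genes did not follow in every library: Ly6a, Ly6c1, Igfbp6, Dpt and Cadm3 were higher in 3 of the 4, and Has1, with 4 UMIs in all, in 0. Lower in each of the 4 were the epithelial growth factors Fgf10 and Igf1, the Wnt agonist Rspo3, the chemokines Cxcl12, Cxcl13 and Cxcl14, the basement membrane collagen Col15a1, and Penk, Hsd11b1 and Mgp. Igf1 differed little in te2, at 4293 and 3990 CPM in the cells with a UMI against 4635 and 4271. Rspo3 (4, 2, 0 and 5), Col15a1 (8, 1, 7 and 8) and Hsd11b1 (13, 2, 0 and 3) had few UMIs in the cells with a Pi16 or Dpp4 UMI. Of the ductal list, Sult1e1 was higher in 2 of the 4 libraries and Wnt5a in 3. Dcn was about even, at 11160, 9933, 13170 and 12741 CPM against 11251, 8672, 13512 and 11902. The division used Pi16 and Dpp4 of the same cells, so these are descriptions.

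**Figure D5:**
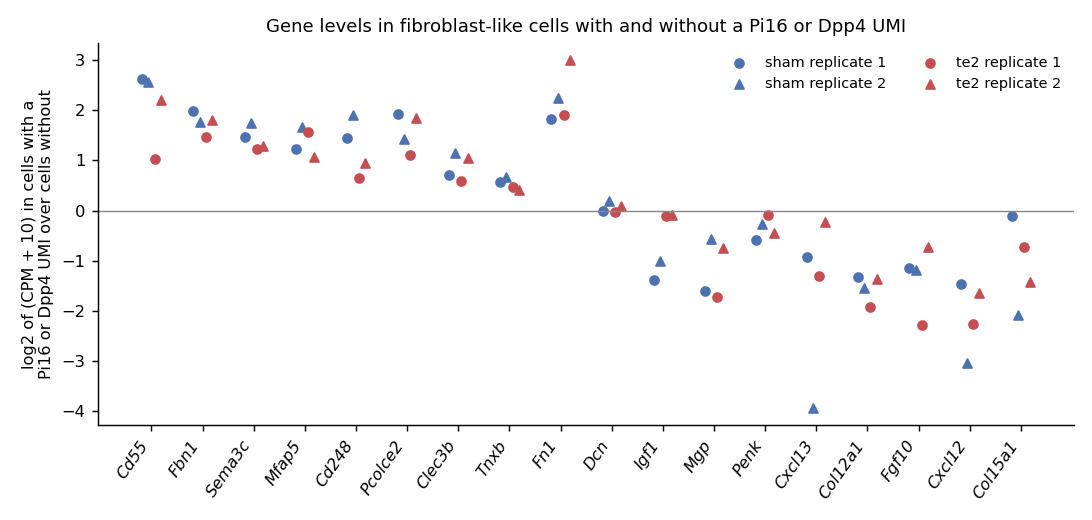
Log2 ratio of CPM + 10 (vertical) in fibroblast-like cells with against without a Pi16 or Dpp4 UMI, per gene (horizontal) and library. Genes from Cd55 to Fn1 lie above 0 in all 4 libraries, Dcn lies near 0, and Igf1 to Col15a1 lie below 0 in all 4.

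Clustering the 499 fibroblast-like cells gave 6 groups of 21 to 154 cells. One of 66 cells was led by Ccn3, Smpd3, Cd55, Krtdap and Sbsn, the last 2 known from keratinocytes. Cd55, Dpp4 and Pi16 put 3 adventitial genes among its top 10, and it is called adventitial fibroblast-like. The others stayed unnamed. One of 71 cells was led by Cxcl13, the B cell chemoattractant, at 13472 CPM against 449 in the other clusters and higher in each of the 4 libraries, with C4b, Vcam1 and Cxcl12 next. One of 154 cells was led by Smoc2, Ccn5 and Chrdl1, which encode secreted matricellular and BMP-binding proteins. One of 21 cells, led by Cxcl14, Apod and Ccn2, had no cell from te2 replicate 1. One of 64 cells was led by Car3 and Cyp2e1. Of the fibroblast-like cells of te2 replicate 2, 1 held 159 Car3 UMIs and 1 held 78 of the 81 Cyp2e1 UMIs. This cluster also had Hpgd, Col6a6 and Ctla2a among its leading genes. The last, of 123 cells, was led by haemoglobins and the epithelial genes Spint2, Epcam and Wfdc3. The clusters were filled unequally: sham 1, sham 2, te2 1 and te2 2 gave 8, 2, 22 and 32 cells to the one led by Car3, whose other leading genes include C7 and Sult1e1, and 32, 20, 8 and 6 to the adventitial fibroblast-like one. In the cells outside the Car3-led cluster C7 was still at 112 and 94.8 CPM in sham and 1614 and 873 in te2, and Sult1e1 at 1954 and 1718 in sham and 4396 and 2413 in te2. Outside the adventitial fibroblast-like cluster Smpd3 was at 77.5 and 134 CPM in sham and 11.6 and 9.81 in te2, and Pcolce2 at 233 and 286 in sham and 87.3 and 62.1 in te2. The groups did not overlap in any of these 4, which are descriptions, since the clusters were drawn with the same genes. A Cxcl13 UMI after thinning was present in 23.7% and 15.9% of fibroblast-like cells in sham and 22.5% and 25.4% in te2, which overlapped.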

How the data were processed

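The authors deposited raw UMI counts per gene and cell for 4 single-cell libraries; per the labels' protocols these came from the 10x Chromium 3' v3.1 kit. The submitters' processing notes name kallisto 0.46.1, bustools 0.39.4, R 4.3.2, Seurat 5.0.1 and GRCm39. The counts, not normalized, were read as a sparse matrix; a gene not listed in a table was taken as 0 there and is named where it matters. Counts of the selected cells were summed per library and tested with edgeR 4.0.16 (R 4.3.3; filterByExpr, TMM factors, quasi-likelihood F test, Benjamini-Hochberg adjustment over all genes tested); standard errors are the log2 change over the root of F. CPM use the tested counts times the TMM factor, or all UMIs for keratin-bearing, unselected and other kept cells, marker lists, the Pi16 and Dpp4 division and clusters. The response was compared between cell sets with the library as a block. Shares were thinned to 500 UMIs. Clusters came from scanpy 1.11.5 (1000 variable genes, 15 components, Leiden resolution 0.5). Depth was 3999690 to 13134017 UMIs per library. The tests were checked on simulated data. DESeq2 1.42.0, other filters and cell limits, and leaving out each library were tried.

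Named genes were the 12 of largest change in each direction that passed with no overlap between groups and at least 20 counts, up to 4 of smallest p per list, the marker genes of the rule, and steroid receptor, growth factor and complement genes listed by name; the rule was applied to both fits. Other named genes (among them the Pi16 and Dpp4 division's, the clusters' and Cfd, Fabp4 and Lrg1) were chosen after their values were seen. The members and lists were chosen with earlier results of these data known. Nothing in the labels says that replicate numbers pair the samples. The correlation of deviations was 0.0044 in all members and -0.058 in fibroblast-like members. It rests on the difference between the replicates of each group and cannot exclude pairing. Some genes covered by this rule are not reported here.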

Additional observations from a re-analysis of the deposited data

Results flagged for a closer look

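For 6 genes with no part in choosing or dividing the cells, the change from sham to te2 in fibroblast-like cells differed from that in the other kept cells by a test of the difference itself (edgeR's quasi-likelihood test, library as a block), and the gene was also among those named for its change. Values are the difference of log2 change, fibroblast-like cells minus the others, as estimated in a joint fit of both. They need not equal the subtraction of the separately fitted changes. They were larger in fibroblast-like cells for Ctla2a (5.70 ± 0.60, adjusted p = 6.74e-18), Spon1 (2.46, adjusted p = 0.00174), C4b (2.39, adjusted p = 2.31e-05) and Gadd45g (1.41 ± 0.40, adjusted p = 0.0438), a stress-response gene. They were smaller for Acta2 (-3.50 ± 0.76, adjusted p = 0.00102), where the other cells rose by 1.30, and Bhlhe41 (-2.24 ± 0.62, adjusted p = 0.03), where the others fell by 0.88. The Ctla2a UMIs lay in 16 and 12 te2 cells, and Acta2 had 24, 9, 1 and 9 UMIs in sham 1, sham 2, te2 1 and te2 2. The difference was tested with an estimate of spread shared by both cell sets. For Ctla2a its SE of 0.60 was below the 1.15 of the change in fibroblast-like cells alone.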

How the results depend on the processing

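The 887 genes changed over all members became 236 by DESeq2, 392 with sums thinned to equal totals, 267 with Sbp and Spink1 under 2% (which left 44 and 7 sham cells) and 247 at 5 UMIs and 0.6% of the rule genes; leaving out 1 library gave 0 to 1456. The 72 of the fibroblast-like members became 210 with no filter on low counts, 124 at 5 counts in 2 libraries, 17 at 1000 UMIs per cell, 25 at 10% mt- counts, 14 with Sbp and Spink1 under 2% and 121 without cells bearing 2 vascular or muscle markers, and 6 to 208 with 1 library left out. With a replicate block the counts were 801 and 166. The labels do not say whether replicate numbers pair the animals. Differences in response from the other kept cells numbered 375 for all members, 102 with Sbp and Spink1 under 2% and 101 to 387 with 1 library left out. For fibroblast-like members they numbered 151, 238 without TMM factors, 80 with Sbp and Spink1 under 2% and 46 to 136 with 1 library left out.

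Subtype shares moved as follows (te2 minus sham, percentage points). Over all members and without thinning, the adventitial list came to -4.04, the ductal to 7.89 and the myofibroblast to 17.4 (5.49 at 1000 UMIs). In fibroblast-like members the adventitial list came to -1.22 at 1000 UMIs, 5.29 at 2 UMIs of the list and 0.882 unthinned. The ductal list came to 3.84 and 19.9 in the first and second of these, and the myofibroblast list to 2.58 at 1000 UMIs and 17.9 unthinned.

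Over all members, Fgl2 turned to 0.29 with Sbp and Spink1 under 2% and Col1a2 to 0.058 at 5 UMIs and 0.6%. The fibroblast-like fits and shares, and the fit without the 2 cells richest in Cfd and Hbb-bs, were added after seeing the data. In them no named gene that passed in the main or the alternative fit turned its direction. Named genes that passed in neither had the opposite sign in 13 combinations of gene and setting, and in 18 over all members. The cause of these shifts was not tested. With 2 animals a group, exact tests cannot go below 0.33.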

Other observations

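Among the fibroblast-like cells, 1 cell of te2 replicate 2 held all 958 Cfd UMIs of that class, and Cfd is in no other library's table. In the same library 1 cell held 159 Car3 UMIs, 1 held 78 of the 81 Cyp2e1 UMIs and 1 held 49 of the 62 Lrg1 UMIs. Car3 has 2, 1 and 3 UMIs in the fibroblast-like cells of sham 1, sham 2 and te2 1.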
